A study of Sus scrofa domesticus with 12 samples.

Results

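The genes described here make up the secretory pathway from the ribosome to the Golgi: the signal recognition particle (SRP) and its receptor, the SEC61 translocon with SEC62 and SEC63, the signal peptidase, the translocon-associated protein (TRAP) complex, the protein disulfide isomerases, the COPII and COPI vesicle coats, the p24 cargo receptors, the KDEL receptors and the ARF GTPases. Members were taken by gene name alone, as every row whose symbol begins with or equals one of these family names. The rule itself reads no measured value, but the families were picked for description with earlier results of these data known. It found 60 genes among the 11506 rows of the table, of which 11485 carry a usable gene name. These are 8 genes of the SRP and its receptor, 5 of the translocon, 5 of the signal peptidase, 4 of the TRAP complex, 3 protein disulfide isomerases, 12 of the COPII coat and its exit sites, 6 p24 receptors, 3 KDEL receptors, 8 of the COPI coat and 6 ARF genes. The COPII group includes SEC22B and SEC22C, which are vesicle fusion genes rather than coat genes.

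RNA was sequenced from whole peroneous tertius (PT) muscle, a dorsiflexor of the lower leg, in 12 limbs of 11 Yorkshire Cross pigs, 12 weeks after surgery. In volumetric muscle loss (VML) injury a block of the middle of the PT muscle was cut out, and the defect was left non-repaired (No repair, n = 2), filled with a hyaluronic acid hydrogel (HA, here Hya-repaired, n = 2) or filled with an acellular extracellular matrix (ECM-SIS, here ECM-repaired, n = 6). The 2 sham-operated limbs (Sham, n = 2) had no muscle removed. Pig 017 gave 1 non-repaired limb and 1 Hya-repaired limb, and all others came from separate pigs. All ECM-repaired limbs carry the label SIS (small intestinal submucosa), whereas the study describes sequenced libraries of both SIS and urinary bladder matrix. Some of these limbs may therefore have received the bladder matrix. Since the 2 materials cannot be told apart here, the limbs were kept as 1 group. The comparison of injured with sham-operated limbs addresses the lasting response to muscle loss, and the comparison of ECM-repaired with the other injured limbs addresses whether the implanted matrix changed it.

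A protein bound for secretion is recognised by its signal peptide as it leaves the ribosome, threaded through the SEC61 channel into the endoplasmic reticulum (ER), trimmed by the signal peptidase, glycosylated and folded. Folded cargo leaves in COPII-coated vesicles, and COPI-coated vesicles together with the KDEL receptors bring escaped ER proteins and cargo receptors back. Skeletal muscle fibers secrete comparatively little and use much of their internal membrane as sarcoplasmic reticulum, whereas fibroblasts export large amounts of procollagen, a cargo longer than a usual COPII vesicle.

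Values are TPM, the kallisto estimate of transcript abundance on a fixed total per library. They are scaled for transcript length, so that genes can be compared within a limb. Between limbs the fixed total ties the value of each gene to those of all others. Named genes held 71.5 to 82.7% of each library's TPM, read depth cannot be recovered from TPM, and n is small in every group except the ECM-repaired one. Fold changes are differences of log2(TPM + 0.5) fitted with limma over 8765 genes with at least 1 TPM in all limbs of at least 1 group, with Benjamini-Hochberg adjustment over all of them and a threshold of 0.05. The 3 injured groups, averaged with equal weight, are called VML-injured. The median of all genes was 0.73 (log2) higher in VML-injured than in sham-operated muscle, and 11 of the 12 tested fast-twitch sarcomere genes were lower. In sham-operated limbs the summed TPM of these 12 genes was 154400 and 171360, and in injured limbs it was 12173 to 79153. Because TPM share a fixed total, the main results are also given after the libraries were rescaled by trimmed means of ratios, which brought the median of all genes to -0.01. All 60 members passed the filter on low values, of which 58 did so in sham-operated muscle and 2, SRP68 and SEC22B, only through an injured group.

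In VML-injured muscle 49 of the 60 secretory pathway genes were higher than in sham-operated muscle, 1 was lower and 10 did not pass the test. Of the 58 members that passed the filter in sham-operated muscle, 48 were higher and 1 was lower (28 and 4 after rescaling). Among all genes tested, 49.3% were higher and 7.67% lower. The median log2 fold change of the members was 1.37 (1.34 over those 58), against 0.73 for all genes. Of the 60 members 20, SRP68 among them, reached at least 2, as did 14.5% of all genes. For 49 members (48 of those 58) all 10 injured limbs lay above both sham-operated limbs, a pattern that 49.8% of all genes showed. For 0 members all 10 lay below, against 8.52% of all genes. After rescaling, 29 of 59 members were higher and 4 lower (SRP14, SEC24B, SEC22C and TMED5), against 28.8% higher and 28.8% lower among all genes, with a median of 0.57.

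**Figure D1:**
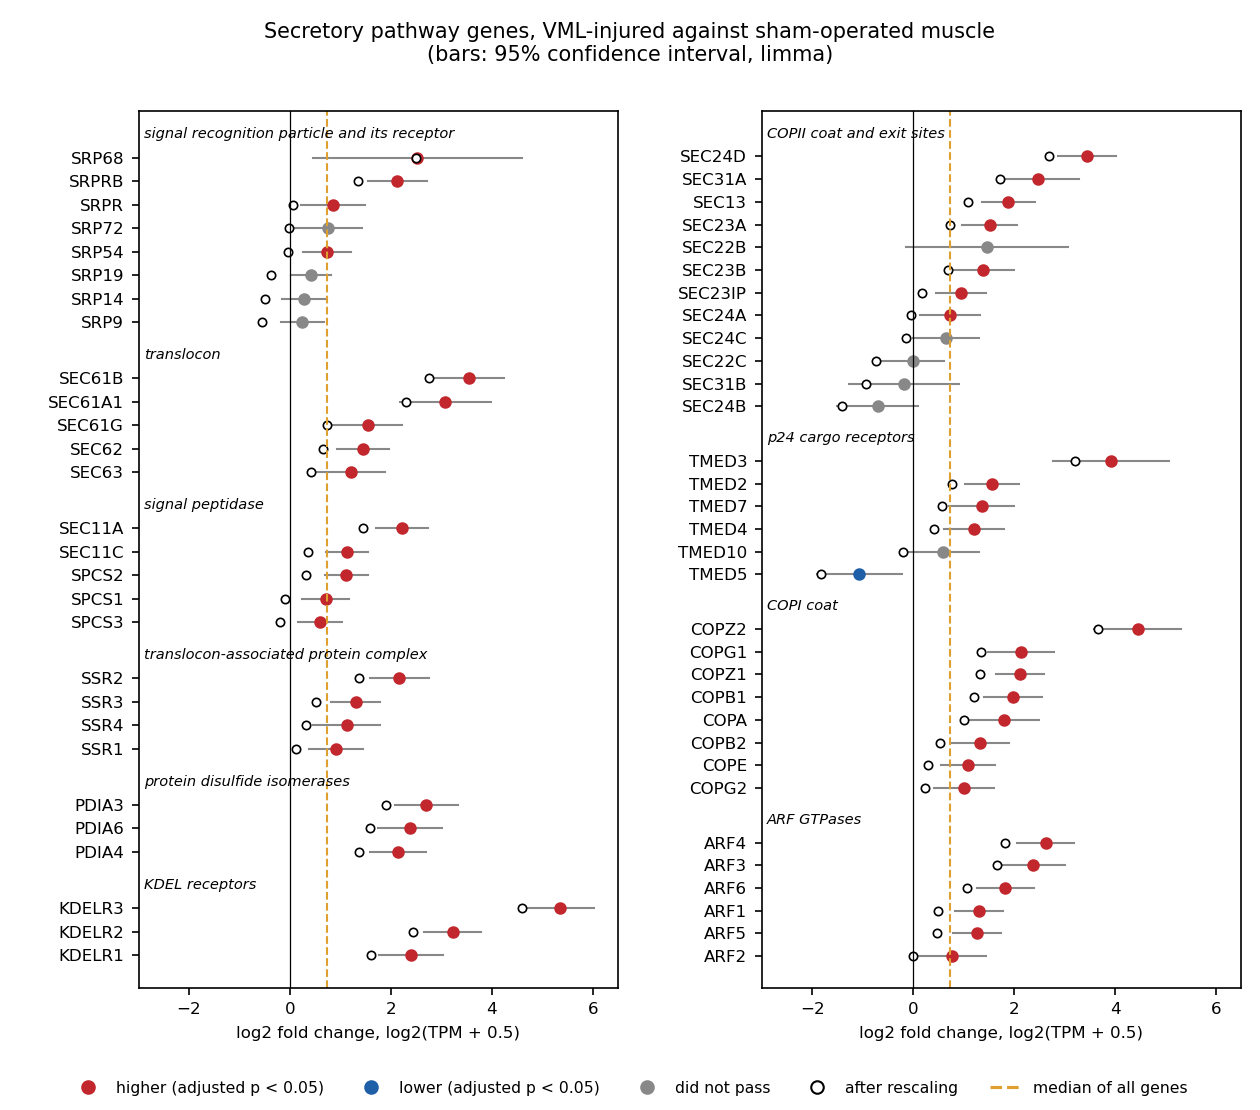
Log2 fold change of each member, VML-injured against sham-operated, by role. Filled points and bars are the estimate and its 95% confidence interval (red higher, blue lower, grey not past the threshold), open points the estimate after rescaling, and the dashed line the median of all genes as deposited (0.73). After rescaling that median was -0.01, which is the reference for the open points and is not drawn. The 3 KDEL receptors and the 3 protein disulfide isomerases lie to the right of that line on both scales, while SRP9, SRP14 and SRP19 lie to its left.

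**Figure D2:**
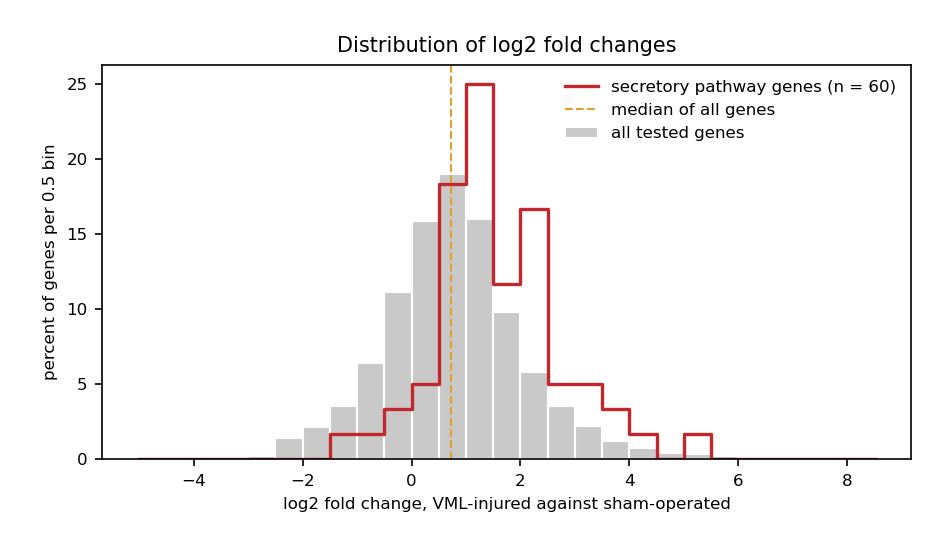
Share of genes in each bin of log2 fold change, VML-injured against sham-operated, for all tested genes (grey bars) and for the 60 secretory pathway genes (red line). The members are shifted to the right of the median of all genes (dashed, 0.73), and 27 of them lie above the upper quartile of all genes.

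Summed over the 60 genes, the secretory machinery took 0.247% and 0.271% of all named-gene TPM in the 2 sham-operated limbs. It took 0.875% and 0.802% in the non-repaired limbs, 1.00% and 0.611% in the Hya-repaired limbs, and 0.760 to 1.05% with a median of 0.895% in the ECM-repaired limbs. All 10 injured limbs lay above both sham-operated limbs, and the lowest was the Hya-repaired limb of pig 017. The mean was 0.869% ± 0.126 (SD, n = 10) in injured and 0.259% ± 0.017 (SD, n = 2) in sham-operated limbs, 3.35-fold higher (exact permutation test, two-sided, p = 0.0152; no lower p is possible with 66 splits). In bulk tissue, more cells of a secreting type and more of these transcripts per cell cannot be told apart. Markers of other cell types were mixed, set beside the 49.3% of all genes that were higher. Of 9 tested fibroblast markers, which include matrix genes such as COL3A1 and DCN, 9 were higher (summed TPM 853 and 1123 in sham-operated limbs, 25500 to 64344 in injured limbs). So were 9 of 9 tested macrophage markers (53.3 and 64.6, against 645 to 1679). Of 6 endothelial markers 1 was higher (160.4 and 267, against 141 to 502), of 5 tested adipocyte markers none was higher or lower (245 and 249, against 56.8 to 295), and of 5 tested sarcoplasmic reticulum genes 2 were lower (3090 and 3254, against 113 to 1434). Of 9 plasma and B cell markers in the table only 2 passed the filter and 1, SDC1, was higher (4.19 and 8.32 summed TPM, against 13.4 to 47.4). Their part in the result was not tested.

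The earliest step, recognition of the signal peptide, had the lowest median log2 fold change of the 10 roles, 0.75, with 4 of 8 genes higher (after rescaling 2 higher and 1 lower). SRP68, whose listed values are in doubt as described next, is among the higher ones on both scales, and without it 3 of 7 genes were higher with a median of 0.73 (after rescaling 1 higher and 1 lower). SRP9 and SRP14 form the heterodimer that slows translation while the ribosome is brought to the membrane. SRP9 stood at 34.9 and 23.6 TPM in sham-operated limbs, 36.3 and 38.9 in non-repaired limbs, 30.1 and 32.6 in Hya-repaired limbs, and 30.7 to 39.9 with a median of 32.4 in ECM-repaired limbs. The groups overlapped, since 1 sham-operated limb (pig 025) was higher than 6 of the injured ones. The log2 fold change was 0.24 (SE 0.20, limma adjusted p = 0.306), which turned to -0.55 after rescaling (adjusted p = 0.0925). SRP14 moved from 16.2 and 17.9 TPM to 17.7 to 27.2 TPM in injured limbs (log2 fold change 0.28, adjusted p = 0.254), and after rescaling it was lower (-0.50, adjusted p = 0.0300). SRP19 and SRP72 did not pass either (0.42 and 0.76), although SRP19 did without pig 016 (adjusted p = 0.0404) and SRP72 without pig 013 or 024 or either limb of pig 017 (adjusted p 0.0332 to 0.0396). SRP54, the GTPase that binds the signal peptide, was higher by 0.73 (adjusted p = 0.0140), which is the median of all genes, and stood at -0.05 after rescaling. That call was lost without pig 025 or 026, the sham-operated limbs (adjusted p = 0.0597 and 0.122). SRP14, SRP19, SRP54 and SRP72 were chosen for mention after their values were seen.

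SRP68 is listed at 0 TPM in both sham-operated limbs, in the non-repaired limb of pig 023 and in the ECM-repaired limb of pig 024, and at up to 9.86 TPM elsewhere. This gene passed the filter only through an injured group, so its test against sham-operated limbs cannot count as support. Since this is a core subunit that every cell uses, a listed 0 can be a failed estimate, and its call in VML-injured muscle (limma adjusted p = 0.0394) did not hold if pig 016, 022, 025 or 026 or the non-repaired pig 017 limb was omitted (adjusted p 0.0528 to 0.178). The receptor that docks the particle behaved unequally. SRPRB, its membrane anchor, rose from 10.6 and 14.5 TPM to 35.4 to 77.0 TPM, a log2 fold change of 2.12 (SE 0.27, limma adjusted p = 4.02e-05) that remained 1.35 after rescaling (adjusted p = 0.000311); it was chosen for mention after its values were seen. SRPR, the GTPase subunit, had 30.7 and 45.4 TPM in sham-operated limbs and 44.6 to 95.7 TPM in injured limbs. Its log2 fold change was 0.85 (limma adjusted p = 0.0257), but 0.06 after rescaling, and the call was lost without pig 016, 023 or 025 (adjusted p = 0.050, 0.0514 and 0.276).

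All 5 translocon genes were higher, 3 of them also after rescaling. SEC61B, a small subunit of the channel, stood at 26.1 and 34.9 TPM in sham-operated limbs, 342 and 329 in non-repaired limbs, 492 and 220.1 in Hya-repaired limbs, and 309 to 581 with a median of 399 in ECM-repaired limbs. Every injured limb was higher than both sham-operated limbs, and the lowest of the injured was the Hya-repaired pig 017 limb. Limma gave a log2 fold change of 3.54 (SE 0.33, limma adjusted p = 4.43e-06; 2.75 after rescaling). SEC61A1, the pore itself, had 9.65 and 19.7 TPM in sham-operated limbs, 136 and 127 in non-repaired limbs, 181 and 81.3 in Hya-repaired limbs, and 55.0 to 174 with a median of 114 in ECM-repaired limbs. The groups did not overlap, and the log2 fold change was 3.08 (SE 0.42, limma adjusted p = 6.56e-05; 2.30 after rescaling). SEC63, which helps to open the channel with SEC62, rose least of the 5, from 15.8 and 14 TPM to 20.7 to 61.1 TPM (1.2 on the log2 scale, limma adjusted p = 0.00605), and did not pass after rescaling (0.42, adjusted p = 0.0765) or with pig 026 (sham-operated) omitted (adjusted p = 0.0557).

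In the signal peptidase the catalytic paralog SEC11A rose from 12.2 and 13.6 TPM to 38.8 to 78.6 TPM (log2 fold change 2.23, SE 0.24, limma adjusted p = 1.19e-05; 1.45 after rescaling). Its sister SEC11C, with 19.9 and 22.8 TPM in sham-operated limbs, reached 38.0 to 58.5 TPM (1.14, adjusted p = 0.000345) and did not pass after rescaling (0.35, adjusted p = 0.205). SEC11C was thus the more abundant of the pair in both sham-operated limbs and the less abundant one in 9 of 10 injured limbs. The accessory subunits SPCS1 and SPCS3 were higher by 0.70 and 0.59 (limma adjusted p = 0.0153 and 0.0250), below the median of all genes, and turned to -0.09 and -0.20 after rescaling. Both calls were lost on omitting pig 025 or pig 026, the sham-operated limbs (adjusted p 0.0532 to 0.234), and that of SPCS3 also without pig 023 (0.0564). All 4 TRAP genes, which assist the channel with weak signal peptides, were higher, and 1, SSR2, also after rescaling. SSR2 rose from 122 and 151 TPM to 429.6 to 806 TPM (2.17, SE 0.27, adjusted p = 3.67e-05; 1.37 after rescaling), while SSR1 rose from 32.3 and 34.6 TPM to 46.3 to 89.7 TPM (0.91, adjusted p = 0.00749; 0.12 after rescaling), a call lost without pig 025 (adjusted p = 0.0774).

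All 3 protein disulfide isomerases, which form and shuffle disulfide bonds in the ER lumen, were higher on both scales. PDIA3, which acts on glycoproteins held by calnexin and calreticulin, stood at 43.8 and 48.3 TPM in sham-operated limbs, 312 and 370.2 in non-repaired limbs, 362 and 168 in Hya-repaired limbs, and 262 to 466.1 with a median of 319.6 in ECM-repaired limbs. The lowest injured limb, again the Hya-repaired limb of pig 017, was still well above both sham-operated limbs. PDIA3 rose by a log2 fold change of 2.70 (SE 0.29, limma adjusted p = 1.26e-05; 1.91 after rescaling), and PDIA4 had the smallest change of the 3, 2.14 (adjusted p = 2.64e-05; 1.36 after rescaling).

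The KDEL receptors, which recognise escaped ER residents in the Golgi and return them, held the largest difference among the members. KDELR3 stood at 3.34 and 5.57 TPM in sham-operated limbs, 207 and 202 in non-repaired limbs, 274 and 108 in Hya-repaired limbs, and 172 to 287 with a median of 209 in ECM-repaired limbs. Every injured limb exceeded the higher sham-operated limb by a wide margin. The log2 fold change of 5.35 (SE 0.31, limma adjusted p = 3.06e-07; 4.61 after rescaling) ranked 43 among the 8765 genes tested. KDELR2 rose from 19 and 26.7 TPM to 149 to 290.3 TPM (3.23, SE 0.26, adjusted p = 1.77e-06) and KDELR1 from 22.3 and 30.8 TPM to 88.6 to 200.2 TPM (2.40, SE 0.29, adjusted p = 2.83e-05), and both passed after rescaling (2.44 and 1.61).

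**Figure D3:**
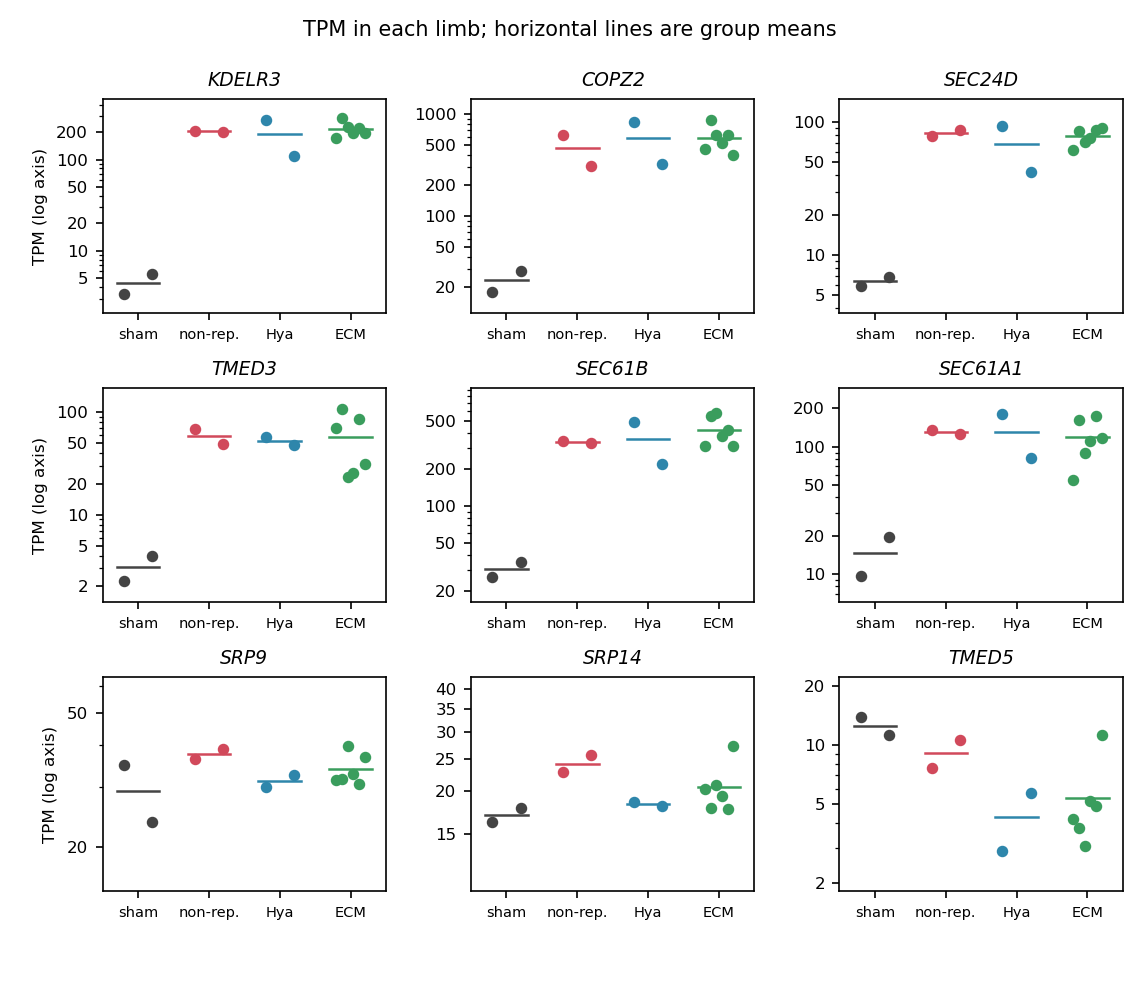
TPM of 9 members in each of the 12 limbs (log axes that differ between panels), by group, with group means as lines. KDELR3, COPZ2, SEC24D, TMED3, SEC61B and SEC61A1 separate the injured from the sham-operated limbs, SRP9 does not, SRP14 does in 9 of 10 injured limbs, and TMED5 is lower in 9 of 10.

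Of the 12 COPII and exit site genes 7 were higher (58.3%, against 49.3% of all genes), none was lower and 5 did not pass. The vesicle fusion genes SEC22B and SEC22C were counted in this group and were among those that did not pass. After rescaling 5 of 11 were higher (45.5%) and 2 lower (18.2%), against 28.8% of all genes in each direction. SEC24 proteins choose the cargo of the vesicle, and the 4 paralogs differed widely. SEC24D, variants of which cause a brittle bone disorder in people, stood at 5.87 and 6.88 TPM in sham-operated limbs, 79.1 and 87.8 in non-repaired limbs, 93.8 and 42.7 in Hya-repaired limbs, and 61.6 to 90.4 with a median of 81.2 in ECM-repaired limbs. There was no overlap, and the log2 fold change was 3.45 (SE 0.26, limma adjusted p = 1.21e-06; 2.69 after rescaling). SEC24A rose from 9.01 and 8.35 TPM to 9.15 to 24.2 TPM, with a log2 fold change of 0.73 (adjusted p = 0.0366), which was -0.04 after rescaling and was lost without either sham-operated limb, either non-repaired limb or the Hya-repaired limb of pig 016 (adjusted p 0.0504 to 0.168). SEC24C did not pass (0.65, adjusted p = 0.0844; -0.13 after rescaling) except without the Hya-repaired limb of pig 017 (adjusted p = 0.0441). SEC24B, at 2.71 and 3.27 TPM in sham-operated limbs, lay below both in 9 of 10 injured limbs (0.900 to 2.47 TPM), and the exception was the ECM-repaired limb of pig 024 at 4.15 TPM. Its log2 fold change of -0.71 did not pass (adjusted p = 0.122), but it did after rescaling (-1.40, adjusted p = 0.000782) and without pig 024 (-0.78, adjusted p = 0.0113).

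The rest of the COPII coat was also split by paralog. SEC31A, of the outer cage, rose from 7.43 and 7.63 TPM to 22.7 to 71.2 TPM (log2 fold change 2.48, SE 0.37, limma adjusted p = 0.000147; 1.72 after rescaling), whereas SEC31B had 4.38 and 7.95 TPM in sham-operated limbs and 1.31 to 7.32 TPM in injured limbs (-0.18, adjusted p = 0.772). SEC13, its partner in the cage, rose by 1.88 (adjusted p = 4.44e-05; 1.09 after rescaling). The inner coat genes SEC23A and SEC23B rose by like amounts, 1.52 and 1.39 (adjusted p = 0.000281 and 0.00122), and both passed after rescaling (0.73 and 0.69). Of the SEC22 genes, which belong to the SNARE family of fusion proteins, SEC22C was at 5.10 and 4.29 TPM in sham-operated limbs and 3.25 to 7.6 TPM in injured limbs, with a log2 fold change of 0.00 (SE 0.28), and was lower after rescaling (-0.74, adjusted p = 0.00791). SEC22B stayed under 1 TPM in both sham-operated limbs (0.219 and 0.174) and ranged from 0.235 to 5.79 TPM in injured limbs (adjusted p = 0.108). It passed the filter only through an injured group.

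The p24 receptors, which cycle with COPII and COPI vesicles, moved in both directions, with 4 of 6 higher and 1 lower (2 and 1 after rescaling). These were 66.7% and 16.7%, against 49.3% and 7.67% of all genes. After rescaling they were 33.3% and 16.7%, against 28.8% of all genes in each direction. TMED3 stood at 2.25 and 4 TPM in sham-operated limbs, 69.3 and 48.8 in non-repaired limbs, 57.8 and 48.2 in Hya-repaired limbs, and 23.3 to 108.5 with a median of 51.0 in ECM-repaired limbs. The ECM-repaired limbs were the most spread, with pigs 018, 021 and 024 below every other injured limb and still above both sham-operated limbs. Its log2 fold change was 3.92 (SE 0.53, limma adjusted p = 6.86e-05; 3.21 after rescaling). TMED2, the most abundant p24 gene, rose by 1.56 (adjusted p = 0.000203; 0.76 after rescaling), and TMED10, named because it was the p24 gene that did not pass, stood at 0.59 (adjusted p = 0.150).

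TMED5 was the only member that fell as deposited. It had 13.8 and 11.2 TPM in sham-operated limbs, 7.59 and 10.6 in non-repaired limbs, 2.90 and 5.69 in Hya-repaired limbs, and 3.05 to 11.3 with a median of 4.55 in ECM-repaired limbs. All injured limbs lay below both sham-operated limbs except the ECM-repaired limb of pig 024 at 11.3 TPM. Its log2 fold change was -1.06 (SE 0.39, limma adjusted p = 0.0344; -1.83 after rescaling, adjusted p = 0.000609), and as deposited the call was lost without either sham-operated limb, the limb of pig 016 or the pig 017 limb that was non-repaired (adjusted p 0.0691 to 0.215).

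All 8 COPI coat genes were higher, 6 also after rescaling. COPZ2, the less widely expressed of the 2 zeta subunits, stood at 17.8 and 28.9 TPM in sham-operated limbs, 628 and 311 in non-repaired limbs, 839.6 and 324 in Hya-repaired limbs, and 399 to 883 with a median of 568.4 in ECM-repaired limbs. The injured and sham-operated limbs did not overlap, and the 2 limbs differed widely within the non-repaired and within the Hya-repaired group. COPZ2 had a log2 fold change of 4.45 (SE 0.40, limma adjusted p = 3.48e-06; 3.66 after rescaling), rank 102 among all genes tested. COPZ1 rose by 2.12 (adjusted p = 1.09e-05; 1.33 after rescaling) and COPG1 by 2.14 (adjusted p = 8.64e-05; 1.35 after rescaling). COPG2 had the smallest change of the coat, 1.01 (adjusted p = 0.00846), which did not pass after rescaling (0.23, adjusted p = 0.291) or without pig 025 (adjusted p = 0.142).

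All 6 ARF genes, small GTPases that recruit COPI and other coats, were higher, and 3 were after rescaling. ARF4 stood at 39.4 and 41.4 TPM in sham-operated limbs, 262 and 276 in non-repaired limbs, 281 and 148 in Hya-repaired limbs, and 221 to 370.2 with a median of 296 in ECM-repaired limbs. The groups did not overlap, and the log2 fold change was 2.62 (SE 0.26, limma adjusted p = 7.97e-06; 1.83 after rescaling). ARF1, the most abundant, rose by 1.30 (adjusted p = 0.000351) but did not pass after rescaling (0.50, adjusted p = 0.125). ARF2 was just past the threshold (0.78, adjusted p = 0.0447), stood at -0.01 after rescaling, and lost its call without any of 7 limbs (either sham-operated limb and those of pigs 014, 016, 018, 022 and 023, adjusted p 0.0551 to 0.349).

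Families with several paralogs were next read as shares of the family's own TPM, which do not depend on how a library is scaled. Of 13 shares compared between the 10 injured and the 2 sham-operated limbs, 10 differed (exact permutation test, two-sided, each p = 0.0152, adjusted over the 13 to 0.0197, the lowest possible). In each of these the injured limbs all lay on the same side of both sham-operated limbs. Such separation was common, with 49.8% of single genes above in all 10 injured limbs and 8.52% below. A matching rate for shares of other families was not computed. SEC24A, SEC24C and SEC24D are parts of the same family total, so their shares are not separate results. SEC24D held 16.5% and 16.2% of the SEC24 TPM in sham-operated limbs and 54.9 to 69.5% in injured limbs. SEC24C went the other way, from 50.4% and 56.4% to 17.4 to 31.8%, and SEC24A from 25.4% and 19.7% to 9.27 to 14.8%. The leading SEC24 paralog was therefore SEC24C in both sham-operated limbs and SEC24D in all 10 injured limbs.

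The coats and the retrieval receptors shifted in the same manner. COPZ2 made up 46.5% and 53.5% of the zeta subunit TPM in sham-operated limbs and 75.9 to 88.1% in injured limbs, and COPG2 fell from 42.1% and 49.4% of the gamma subunits to 20.9 to 35.3%. SEC31B went from 37.1% and 51.0% of the SEC31 TPM to 2.05 to 23.3%. KDELR3 rose from 7.48% and 8.83% of the KDEL receptors to 31.3 to 39.6%, ARF4 from 19.1% and 17.4% of the ARF genes to 31.6 to 42.0%, and TMED3 from 1.27% and 2.40% of the p24 genes to 5.13 to 19.6%. The TMED3 share did not pass without pig 013 or the Hya-repaired pig 017 limb (exact permutation test, adjusted p = 0.0709 and 0.0645), and with a single sham-operated limb no share could pass. SEC11C fell from 62.1% and 62.6% of the catalytic signal peptidase TPM to 37.9 to 52.6%. The SEC23 pair kept its composition within the spread of the limbs, with SEC23A at 92.0% ± 1.74 (SD, n = 2) in sham-operated and 91.9% ± 0.824 (SD, n = 10) in injured limbs (exact permutation test, adjusted p = 0.879). PDIA3 among the disulfide isomerases (adjusted p = 0.0716) and SEC22B within its pair (adjusted p = 0.148) did not pass, although PDIA3 did (adjusted p = 0.0473) without the Hya-repaired pig 017 limb.

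**Figure D4:**
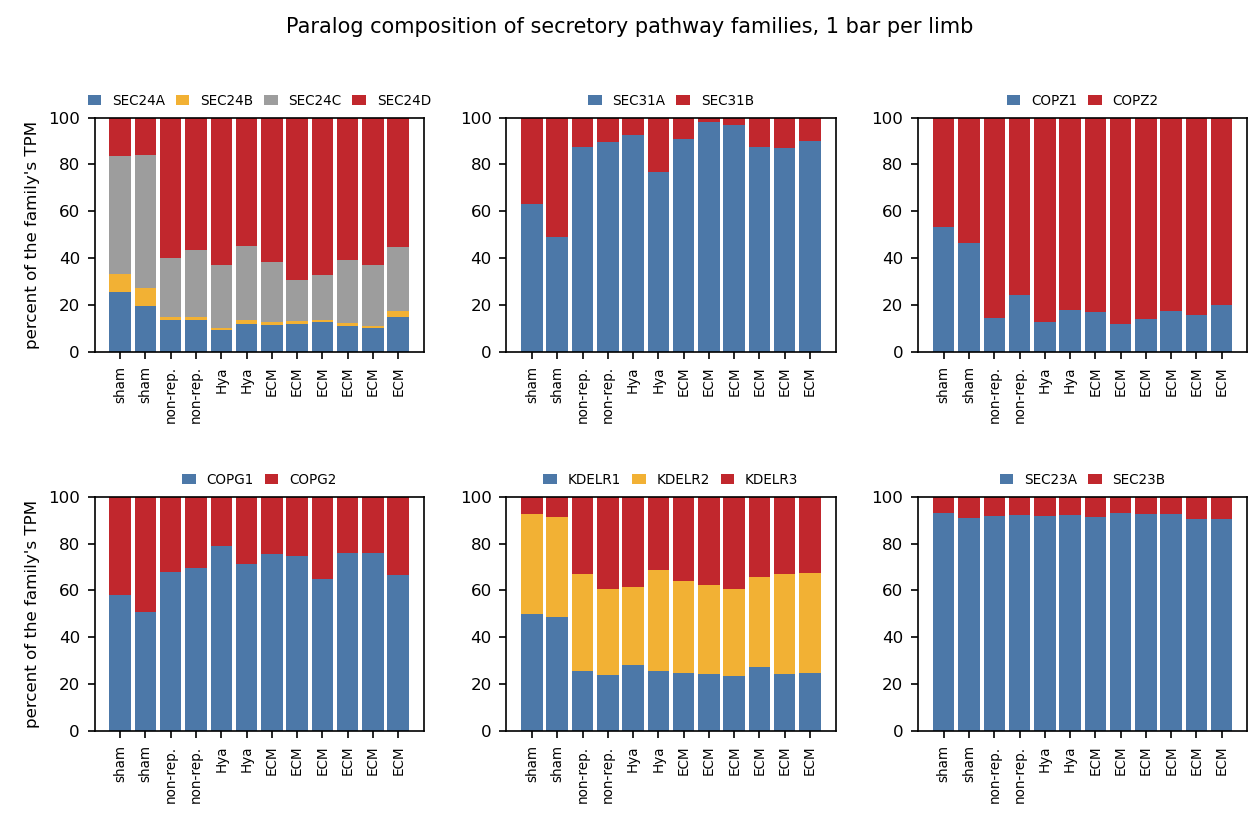
Percent of each family's TPM held by each paralog, with 1 stacked bar per limb. SEC24D, COPZ2 and KDELR3 (red) widen and SEC31B and COPG2 (red) narrow in all 10 injured limbs, while SEC23A stays between 90.5 and 93.2% in all 12 limbs.

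The roles also took different shares of the machinery's own TPM, a comparison added after the values were seen. The KDEL receptors made up 2.84% ± 0.586 (SD, n = 2) of it in sham-operated and 8.42% ± 0.576 (SD, n = 10) in injured limbs, the COPI coat 11.01% ± 1.07 and 16.2% ± 1.62, the translocon 9.34% ± 1.55 and 12.9% ± 1.22, and the disulfide isomerases 4.12% ± 0.485 and 7.08% ± 1.18. The SRP and its receptor fell from 8.37% ± 0.177 to 4.07% ± 0.703, the signal peptidase from 11.8% ± 1.54 to 6.53% ± 0.900 and the p24 receptors from 9.09% ± 0.697 to 6.90% ± 0.820. In these 7 roles all 10 injured limbs lay on the same side of both sham-operated limbs (exact permutation test, p adjusted over the 10 roles = 0.0216). The TRAP complex, the COPII coat and the ARF genes did not pass (adjusted p = 0.0568, 0.167 and 0.0673). Without the limb of pig 022 the disulfide isomerases did not pass either (exact test, adjusted p = 0.0519), while the TRAP complex passed without pig 013, 014 or 018 or the Hya-repaired pig 017 limb and the ARF genes without pig 023 or 024 (adjusted p = 0.0455 in each). All shares in a limb sum to the same whole, so the roles are not separate results. A role's share can also rest on single genes. COPZ2 held 17.8 and 28.9 of the COPI coat's 189 and 228 TPM in sham-operated limbs. In injured limbs it held 311 to 883 of 704 to 1557.5 TPM. SEC61B held 26.1 and 34.9 of the translocon's 192 and 160 TPM, and 220.1 to 581 of 579 to 1208. Shares without these genes were not tested, so the shifts cannot be read as those of every gene in a role.

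Each injured group was also set against the same 2 sham-operated limbs, so these comparisons share their controls. In ECM-repaired limbs 49 of 60 members were higher (30 of 59 after rescaling), where 47.9% of all genes were (29.2% after rescaling). In non-repaired limbs 47 were higher (23 after rescaling), against 45.1% of all genes (21.8%), and in Hya-repaired limbs 40 were (24 after rescaling), against 33.8% of all genes (23.3%). Of the 58 members that passed the filter in sham-operated muscle, 49 were higher in ECM-repaired, 47 in non-repaired and 39 in Hya-repaired limbs. After rescaling these counts were 29, 23 and 23. The count in Hya-repaired limbs was 23 when only the 4 limbs compared were fitted. Over all genes the count also fell in that fit, from 2963 of 8765 to 1736 of 8420. Without pig 016 or pig 025 both counts were lower as well. KDELR3 was higher by 5.47 in ECM-repaired, 5.41 in non-repaired and 5.16 in Hya-repaired limbs (limma adjusted p = 3.46e-07, 3.41e-06 and 8.17e-06). The values for COPZ2 were 4.60, 4.25 and 4.49, and those for SEC24D were 3.52, 3.61 and 3.22. TMED5 fell by 1.25 in ECM-repaired and by 1.5 in Hya-repaired limbs (adjusted p = 0.0184 and 0.0311) and stood at -0.45 in non-repaired limbs (adjusted p = 0.461). Both calls were lost without either sham-operated limb (adjusted p = 0.143 and 0.0599 in ECM-repaired, 0.162 and 0.0692 in Hya-repaired limbs). The call in Hya-repaired limbs was also lost without pig 016 (adjusted p = 0.277) and when only the limbs compared were fitted.

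Between the injured groups limma called 0 of the 60 members in ECM-repaired against the mean of non-repaired and Hya-repaired limbs, in ECM-repaired against non-repaired, in Hya-repaired against non-repaired and in ECM-repaired against Hya-repaired limbs, and 0.0% of all genes in each. At an unadjusted p under 0.05 the count of members was also 0 in each, and after rescaling it was 1 in the ECM-repaired against the other injured limbs, SEC31B. Among all 8765 genes these counts were 113, 71, 194 and 205 in the same order, and after rescaling 241 of 8791 in the first. Such counts do not set the members apart from other genes. The median difference of the members between ECM-repaired and other injured limbs was 0.06, and the 95% confidence interval of a member reached 0.48 to either side in the median and 0.32 to 1.69 over the members. For KDELR3 the difference was 0.19 ± 0.55 (95% interval), for COPZ2 0.23 ± 0.70, for SEC24D 0.10 ± 0.47, for SEC61B 0.31 ± 0.58 and for TMED5 -0.28 ± 0.69, so changes of these sizes could not be told from none with this number of limbs. The summed TPM of the members was 0.899% ± 0.099 (SD, n = 6) in ECM-repaired and 0.823% ± 0.164 (SD, n = 4) in the other injured limbs (exact permutation test, p = 0.395). None of the 13 paralog shares passed between these groups, with the lowest unadjusted p for ARF4 (38.2% against 34.5%, exact permutation test, p = 0.0476, adjusted p = 0.619).

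Other genes of the pathway, taken from lists rather than by the naming rule, surround these steps. All 12 oligosaccharyltransferase genes, which attach N-glycans beside the translocon, were higher (7 after rescaling), among them the scaffold subunits RPN1 (log2 fold change 2.13, limma adjusted p = 4.70e-05), RPN2 (3.27, adjusted p = 9.82e-06), DDOST (1.99) and DAD1 (1.64), and OSTC (3.21, adjusted p = 2.08e-06). Of 14 ER chaperone genes 13 were higher (12 after rescaling), with 1.65 for HSPA5 (BiP, the main ER HSP70), 1.98 for HSP90B1, 2.41 for CALR and 1.28 for CANX. SDF2L1 (3.14) and MANF (2.73) had the lowest p of that list. These shares of 100% and 92.9% stood beside the 49.3% of all genes.

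The regulators of the unfolded protein response, which sense misfolded protein in the ER, were mixed: of 10 genes 5 were higher and 1 lower, and after rescaling 3 were higher and 3 lower. These counts lay near the 49.3% higher and 7.67% lower of all genes, and the 28.8% in each direction after rescaling. XBP1, a transcription factor of secretory cells, rose from 23 and 31.8 TPM to 79.0 to 207 TPM (2.46, limma adjusted p = 1.87e-05), and ATF6B rose by 2.30 (adjusted p = 0.000129). The sensors ATF6 (-0.51, adjusted p = 0.293) and EIF2AK3 (0.80, adjusted p = 0.0595) did not pass, although EIF2AK3 did without pig 013, pig 024 or the Hya-repaired pig 017 limb (adjusted p 0.0318 to 0.0442). ATF4 was the gene that fell, from 1236 and 1122 TPM to 321 to 987 TPM (-0.87, adjusted p = 0.0395), and was chosen for mention after its values were seen. The call of ATF4 was lost without either sham-operated limb, pig 013, 016 or 022 or the non-repaired limb of pig 017 (adjusted p 0.0512 to 0.202). Of 23 tested other ER export genes 15 were higher and 1 lower (12 and 4 after rescaling), shares of 65.2% and 4.35% (52.2% and 17.4%). The 2 SAR1 GTPases that start COPII assembly went opposite ways: SAR1A rose from 88 and 78.4 TPM to 241 to 517 TPM (2.23, adjusted p = 2.30e-05), and SAR1B fell from 216 and 164 TPM to 40.4 to 122 TPM (-1.31, adjusted p = 0.00770), with SAR1A at 1.44 and SAR1B at -2.11 after rescaling. The call of SAR1B was lost without pig 025 (adjusted p = 0.102). PREB, the exchange factor that activates SAR1, did not pass (-0.23, adjusted p = 0.490) and was lower after rescaling (-1.01, adjusted p = 0.00254). TFG, which organises exit sites, rose by 1.34, and RAB1A and BET1, which guide and fuse vesicles at the Golgi, by 2.52 and 2.30.

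The cargo rose far more than the machinery. The summed TPM of 15 fibrillar matrix genes (collagens and associated proteins) was 1552 and 2715 in sham-operated limbs and 49263 to 135260 in injured limbs. All 15 were higher, against 49.3% of all genes, with a median log2 fold change of 5.13 (4.36 after rescaling). Per TPM of secretory pathway genes there were 0.843 and 1.40 TPM of matrix cargo in sham-operated limbs, 15.5 and 13.5 in non-repaired limbs, 16.7 and 10.8 in Hya-repaired limbs, and 9.42 to 15.9 with a median of 13.7 in ECM-repaired limbs. All injured limbs lay above both sham-operated limbs, with a mean ratio of 13.8 ± 2.32 (SD, n = 10) against 1.12 ± 0.393 (SD, n = 2), 12.3-fold higher (exact permutation test, p = 0.0152, the lowest possible with 66 splits). The matrix genes were listed with earlier results of these data known, so this test cannot count as independent support. Between ECM-repaired and other injured limbs the ratio was 13.5 and 14.1 (exact permutation test, p = 0.662).

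Over the 10 injured limbs, which include 2 limbs of pig 017, 2 relations of the summed members were computed on the log2 scale. Against the summed matrix cargo Pearson's r was 0.783 (permutation test with 100000 resamples, p = 0.0116, adjusted p = 0.0116) and Spearman's rho 0.673 (p = 0.0387, adjusted p = 0.0387). That r was 0.304 without the 2 limbs farthest from the median of the cargo and 0.455 with 1 limb, the Hya-repaired one of pig 017, omitted, so the relation rests on those limbs. Against the summed fast-twitch sarcomere genes, a relation added after the values were seen, r was -0.875 (permutation p = 0.00036, adjusted p = 0.00072) and rho -0.939 (p = 0.00017, adjusted p = 0.00034), and r was -0.855 without the 2 farthest limbs. TPM share a fixed total, and its part in the relation was not tested.

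**Figure D5:**
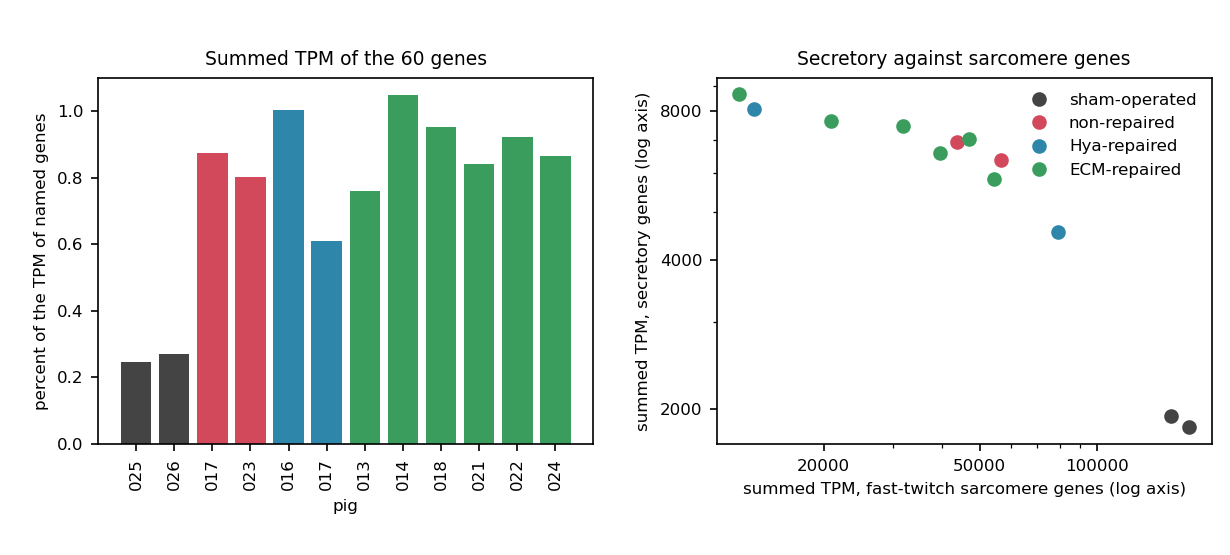
Left, summed TPM of the 60 genes as a percent of the TPM of named genes in each limb (0.247 and 0.271% in sham-operated limbs, 0.611 to 1.05% in injured limbs), with pig 017 shown once for each of its limbs. Right, summed TPM of the 60 genes against that of the fast-twitch sarcomere genes, with 1 point per limb and log axes. The injured limbs with the least sarcomere RNA had the most secretory pathway RNA.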

How the data were processed

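RNA-seq of 12 limbs was used. The authors quantified transcripts with kallisto against a pig genome, and the TPM they deposited were used unchanged. Per the labels, the authors isolated total RNA from whole PT muscle and prepared TruSeq libraries that were sequenced as paired ends. Per-gene counts were not used here, so depth per library is unknown and no counting interval is given. The members and all gene lists were chosen with earlier results of these data known. Names were matched as written. Of the names the rule could match, 11 further family members known from other species were not found among the named rows. Family shares are therefore shares of the members found. There were 239 genes at 0 in all limbs, and 21 names that had been turned into dates were left out.

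Values were taken as log2(TPM + 0.5), filtered at 1 TPM in all limbs of at least 1 group, and fitted with limma 3.58.1 in R 4.3.3 (lmFit, eBayes with trend and robust estimation, 1 coefficient per group over all 12 limbs). The study tested counts, and limma stands in for that test on TPM. A fold change on this scale understates changes of low genes. limma p-values measure the spread between limbs, with 2 limbs in 3 of the groups. Sums, ratios and shares were compared by exact permutation over limbs (Python 3.11.15, NumPy 2.4.6). Named genes were, in each role, those with the largest and smallest fold change and the highest TPM, all members of small paralog families, and every member that fell. In the other lists they were the first 4 genes tested and the 2 with the lowest p. The methods were tested on simulated data. Alternatives were other pseudocounts and filters, no filter, 2 rescalings, a fit of the compared limbs alone, and leaving out each limb.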

Additional observations from a re-analysis of the deposited data

Results flagged for a closer look

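In 9 of 75 values examined over the 6 ECM-repaired limbs, 1 limb stood apart from the other 5 by Dixon's test, and chance gives about 1 in 20. Genes of the same library are not independent, so these are not 9 separate results. In 7 of them it was the highest value, in pig 024: SRP14 at 27.2 TPM, SEC63 at 61.1 TPM, SSR1 at 82.9 TPM, SEC24A at 24.2 TPM, SEC24B at 4.15 TPM, TMED5 at 11.3 TPM and TMED10, a p24 receptor, at 103.7 TPM. For TMED5 the other 5 limbs lay between 3.05 and 5.16 TPM, and for SEC24B between 0.900 and 1.86 TPM. The library of pig 024 also had the lowest trimmed-mean scaling factor, 0.625, against 0.871 to 1.10 in the other ECM-repaired limbs. The flagged TPM are as deposited, and rescaling lowers those of pig 024 relative to the other limbs. Whether they stand apart after rescaling was not tested. In the other 2, SEC22B stood at 5.68 TPM and at 52.9% of its pair in pig 021, where the other 5 limbs held 0.235 to 1.51 TPM and 5.63 to 16.5%.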

How the results depend on the processing

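After rescaling by trimmed means or by median of ratios, the members counted higher and lower were 29 and 4 in VML-injured, 30 and 5 in ECM-repaired, 23 and 3 in non-repaired and 24 and 3 in Hya-repaired limbs, and 7 or 8 other pathway genes were lower. Rescaling turned SRP9 (-0.55, -0.56), SPCS3 (-0.20, -0.22), SPCS1 (-0.093, -0.11), ARF2 (-0.0053, -0.019), SEC24A (-0.041, -0.054) and SEC24C (-0.13, -0.15), by the construction of the scale. Fitting only the limbs compared gave 23 higher and 0 lower in Hya-repaired limbs, and 1736 higher and 226 lower among 8420 genes.

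With each limb left out in turn, the members higher in VML-injured limbs ranged from 36 (without pig 025) to 51, and in Hya-repaired limbs from 24 to 44. The members lower ranged from 0 to 2 in VML-injured, ECM-repaired and Hya-repaired limbs, and the other pathway genes lower from 0 to 2. SRP9 ranged from -0.033 to 0.52, SEC31B from -0.58 to 0.21 and SEC22C from -0.11 to 0.11. SEC22C was also 0.0012 with a pseudocount of 1 and 0.039 without pig 017. The SEC23A share ranged from -1.39 to 1.06 percentage points, was 0.687 from TPM + 0.5 and 0.11 as a log2 ratio. Between ECM-repaired and other injured limbs the log2 ratio of the summed members was -0.024 and that of cargo to members 0.030 when medians over genes replaced sums, and the latter ranged from -0.18 to 0.023 over limbs left out. The cause of these changes was not tested. KDELR3, COPZ2, SEC24D, SEC61B and SEC61A1 kept their direction and passed under every alternative. No paired analysis was possible because only pig 017 gave limbs to 2 groups. TPM carry no read depth, so low genes such as SEC22B and SRP68 have unknown counting error.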
